A study of Mus musculus with 6 samples.

Results

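The oocyte linker histone and 6 histone chaperones were followed through mouse oocytes at metaphase II (MII), where an ovulated oocyte halts until it is fertilised. The 7 genes were taken by name from both deposited tables: H1foo (written H1f8 in the table of pools), Npm2, Npm3, Nasp, Hira, Asf1a and Asf1b. They are 7 of 14165 gene entries in the table of pools and 7 of 54658 in the table of single oocytes, and all 7 were found in both. By its title, the study asks how Plat, the gene of tissue-type plasminogen activator, protects oocytes of aged mice from dying. It has 6 samples: 59 single oocytes of aged mice, 35 single oocytes of young mice, and 4 pools of 10 young oocytes, of which 2 received control short interfering RNA (siCtrl, titled WT) and 2 short interfering RNA against Plat (siPlat, titled KD). All oocytes were labelled MII, the single oocytes were labelled as having no treatment, and all libraries were made with Smart-seq2, a full-length cDNA method based on PCR. The labels gave no strain, no age in numbers, no animals and no way of delivering the short interfering RNA. The p-values from the pools therefore measure only the spread between these libraries, which may be technical, and each age of the single oocytes counts as 1 sample.

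Histones are basic and are escorted by chaperones until they are wrapped with DNA into nucleosomes. A linker histone then binds where the DNA enters and leaves the nucleosome. H1foo encodes the linker histone that oocytes use in place of the somatic forms, and it is lost from embryonic chromatin after fertilisation. Npm2 and Npm3 belong to the nucleoplasmin family, whose founding member binds histones H2A and H2B in the egg and takes part in remodelling sperm chromatin. Nasp encodes a carrier that holds soluble histones H3 and H4 in reserve. Asf1a and Asf1b encode paralogous chaperones that receive H3 and H4 and hand them on, to Hira for deposition of the variant H3.3 or to chromatin assembly factor 1 at replication. An MII oocyte does not transcribe its genome to any great extent, so its chaperone transcripts are largely the stored ones it has kept.

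In mm10 coordinates (GENCODE annotation of GRCm38) H1foo lies on chromosome 6 from 115944938 to 115950236, Npm2 on chromosome 14 from 70647302 to 70659244, and Npm3 on chromosome 19 from 45747734 to 45749591. Nasp lies on chromosome 4 from 116601052 to 116627941, Hira on chromosome 16 from 18877037 to 18970309, Asf1a on chromosome 10 from 53596757 to 53609225, and Asf1b on chromosome 8 from 83955507 to 83970197. Reads were counted per gene. Neither the strand setting nor the handling of reads in shared exons is given in the sources used here, and 3 of the 7 counts are uncertain for these reasons. Of the 2634 exon bases of Asf1a, 1551 are shared with exons of Mcm9 on the other strand. Of the 4735 exon bases of Hira, 2778 are shared with other genes, the read-through gene Gm28539 among them. Gm28539 lies on the same strand as Hira, so no strand setting would separate the reads that both share. It was listed at 0 counts in every group of single oocytes. Npm3 shares 84 of 888 exon bases with the antisense gene Gm15491. Npm2 overlaps Xpo7 without a shared exon base, and H1foo, Nasp and Asf1b overlap no other annotated gene.

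RefSeq promoters (GRCm38.p6, 250 bases before to 50 bases after the start, given 5′ to 3′ on the strand of the gene) were matched for 6 of the 7 genes: all but Npm2. The 4 below are shown because Asf1a and Asf1b rose and fell together between oocytes, H1foo was the member that changed in the pools, and Nasp went the other way from H1foo between oocytes. Capitals mark the letters CCAAT on either strand (ATTGG where it lies on the other strand). The promoters lie at chr8:83955444-83955743 (Asf1b, plus strand), chr10:53596711-53597010 (Asf1a, plus strand), chr6:115944681-115944980 (H1foo, plus strand) and chr4:116627902-116628201 (Nasp, minus strand).
Asf1b: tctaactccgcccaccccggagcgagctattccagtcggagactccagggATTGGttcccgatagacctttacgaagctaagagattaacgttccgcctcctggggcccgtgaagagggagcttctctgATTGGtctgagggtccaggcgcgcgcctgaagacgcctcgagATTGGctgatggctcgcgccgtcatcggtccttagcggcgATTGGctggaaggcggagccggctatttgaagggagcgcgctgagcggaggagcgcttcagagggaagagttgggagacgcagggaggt
Asf1a: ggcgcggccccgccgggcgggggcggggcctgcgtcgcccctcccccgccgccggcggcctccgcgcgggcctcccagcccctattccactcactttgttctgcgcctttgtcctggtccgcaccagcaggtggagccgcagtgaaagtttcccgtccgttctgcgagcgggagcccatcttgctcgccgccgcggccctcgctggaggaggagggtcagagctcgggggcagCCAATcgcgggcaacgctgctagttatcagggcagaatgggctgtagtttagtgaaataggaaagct
H1foo: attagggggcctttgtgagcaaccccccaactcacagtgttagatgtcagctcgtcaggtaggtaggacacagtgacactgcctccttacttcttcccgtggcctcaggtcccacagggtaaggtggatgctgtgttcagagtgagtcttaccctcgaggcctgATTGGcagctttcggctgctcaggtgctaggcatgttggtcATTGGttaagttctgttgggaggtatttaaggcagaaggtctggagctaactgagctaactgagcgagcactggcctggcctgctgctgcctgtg
Nasp: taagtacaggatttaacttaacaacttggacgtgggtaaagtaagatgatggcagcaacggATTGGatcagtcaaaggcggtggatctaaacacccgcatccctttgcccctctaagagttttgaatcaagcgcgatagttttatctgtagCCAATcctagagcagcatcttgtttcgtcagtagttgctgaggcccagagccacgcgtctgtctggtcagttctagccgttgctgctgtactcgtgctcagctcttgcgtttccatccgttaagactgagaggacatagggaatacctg
CCAAT occurred 4 times in the Asf1b promoter, 2 times in those of H1foo and Nasp, 1 time in that of Asf1a and 0 times in those of Npm3 and Hira. Of 32851 mouse promoters of the same length, 37.4% held CCAAT at least 1 time, 11.7% at least 2 times and 1.06% at least 4 times. GGGCGG, searched on both strands, occurred 3 times in the Hira promoter, 2 times in those of Npm3 and Asf1a, 1 time in that of Asf1b and 0 times in those of H1foo and Nasp, against 35.7% of all promoters with at least 1. CANNTG occurred 1 time in each of H1foo, Npm3, Hira and Asf1a and 0 times in Nasp and Asf1b, where 72.3% of all promoters held it, and TATAAA was in 0 of the 6 (13.6% of all). Guanine and cytosine made up 69.0% of the Hira and Asf1a promoters, 61.3% of that of Asf1b, 57.7% of that of Npm3, 54.7% of that of H1foo and 48.3% of that of Nasp. These matches describe letters in a window and are not evidence of a bound site.

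Libraries of the pools held 12142884 to 17475952 gene counts, and single oocytes 2018226 to 11894782. Levels are given as counts scaled to a common total of gene counts (CPM). Of the 59 aged oocytes, 21 stood apart with a mitochondrially encoded share of gene counts above 5% (6.78 to 61.6%, median 32.8%) and 7385 to 13849 genes with a count. The other 38 aged oocytes, called low-mitochondrial here, had shares of 0.947 to 2.97% and the 35 young oocytes 0.688 to 1.92%. All 10 oocyte marker genes reached 5 CPM in each group, but their summed level had a median of 20687 CPM in young, 18918 CPM in low-mitochondrial aged and 1299 CPM in high-mitochondrial aged oocytes. Of 13 cumulus and granulosa markers, 2 reached 5 CPM in each group of single oocytes, with summed levels of 54.9 to 114 CPM in young, 41.0 to 111 CPM in low-mitochondrial aged and 0 to 75.0 CPM in high-mitochondrial aged oocytes; Fshr, Foxl2 and Amh were at 0 in the first and the last. Of 6 blood and immune markers 1 reached 5 CPM in each group, with summed levels of 4.74 to 21.2 CPM, 3.82 to 19.0 CPM and 0 to 130 CPM (median 1.05) in the same order. Of 7 stroma and endothelium markers 2, 3 and 2 did, with summed levels of 103 to 234 CPM (median 173), 75.9 to 178 CPM (median 111) and 0 to 45.5 CPM (median 16.2). Whether the state of these libraries accounts for any difference below was not tested. Summed ratios of aged over young are therefore given with and without the 21 high-mitochondrial oocytes, and values per oocyte for each set of aged oocytes.

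H1foo stood far above the chaperones in young oocytes, and the 6 chaperones fell into 3 tiers. Divided by exon length, H1foo was at 7649 to 11270 CPM per kilobase (median 9427 over 35 oocytes) and ranked 3 of 54069 genes with a length. Asf1b (median 299 CPM per kilobase, rank 157) and Npm2 (265, rank 184) formed the next tier. Asf1a (74.2, rank 876) and Nasp (49.1, rank 1274) came below them, and Npm3 (1.71, rank 8041) and Hira (0.688, rank 11000) were the least abundant. The last 2 were under the minimum of 5 CPM used for counts over all genes, and the other 5 passed it. With full exon lengths, the oocyte ranges did not overlap between tiers and overlapped within each tier. Asf1b lay above Npm2 in 26 of 35 oocytes, Asf1a above Nasp in 31 and Npm3 above Hira in 33. By the same lengths, low-mitochondrial aged oocytes kept the tiers but reversed the order inside 2 of them. Npm2 was above Asf1b in 28 of 38 oocytes and Nasp above Asf1a in 30. The ranks of Asf1a and Hira rest on counts that may include reads of overlapping genes or lack reads in shared exons. The gap above Asf1a also depends on its length, 2.634 kilobases in full and 1.083 without shared bases. With the shorter length, Asf1a (up to 334 CPM in young oocytes) would overlap Npm2 (from 183 CPM over 0.997 kilobases). Among low-mitochondrial aged oocytes the reversal of Nasp and Asf1a rests on the full length. Over 1.083 kilobases the median of Asf1a (160 CPM) would lie above that of Nasp (84.8 CPM per kilobase). Without shared bases Npm3 (median 1.52 CPM over 0.804 kilobases in young oocytes) and Hira (3.26 CPM over 1.957) would lie closer together.

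**Figure D1:**
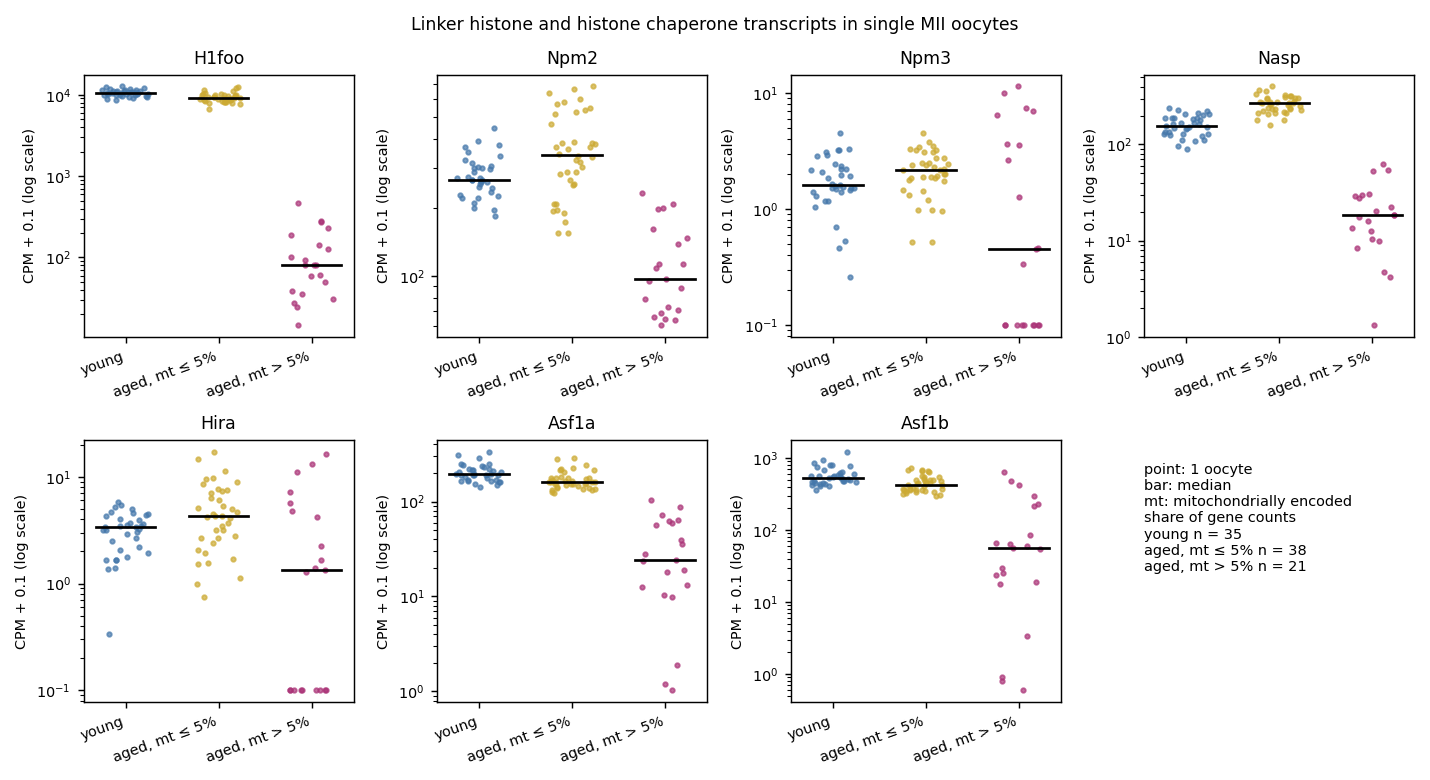
Level of the 7 genes in single MII oocytes, 1 point per oocyte, as CPM plus 0.1 on a log scale (vertical axis), for 35 young, 38 low-mitochondrial aged and 21 high-mitochondrial aged oocytes (horizontal axis); bars are medians. H1foo, Nasp and Asf1a of the high-mitochondrial oocytes lie below every other oocyte, whereas Npm3 and Hira spread over the whole range there.

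The linker histone transcript varied least of the 7 in young and low-mitochondrial aged oocytes. In young oocytes H1foo ran from 8582 to 12645 CPM (median 10577), with a coefficient of variation of 0.0943 between oocytes. The median was 0.174 for the 7 genes within 2-fold of its mean, H1foo itself among them. H1foo ran from 6670 to 12416 CPM (median 9139) in low-mitochondrial aged oocytes. Most of these oocytes lay in the lower part of the young range, with 34 of 38 below the young median and 10 below the lowest young oocyte. Summed over oocytes, H1foo was at 10486 CPM in young and 9332 CPM in low-mitochondrial aged oocytes. The log2 ratio was -0.17 (interval from the 95% counting limits of both sums, -0.17 to -0.16), or 1.12-fold lower. With all 59 aged oocytes the summed level was 6848 CPM (log2 ratio -0.61, 1.53-fold lower), so most of that difference moved with the 21 high-mitochondrial oocytes. These intervals cover counting error only, since PCR reads without molecular identifiers are not independent molecules, and no test between ages was made.

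Npm2 spread most widely of the 7 for its level among the low-mitochondrial aged oocytes. It ran from 183 to 449 CPM (median 264) in young and from 155 to 683 CPM (median 340) in low-mitochondrial aged oocytes. The aged oocytes reached past the young range on both sides, 11 of 38 above the highest and 3 below the lowest young oocyte. The coefficient of variation was 0.414 in low-mitochondrial aged oocytes, against a median of 0.190 and a 90th percentile of 0.292 for the 983 genes within 2-fold of its mean; in young oocytes it was 0.215. In high-mitochondrial oocytes it was 0.467 for Npm2, against a median of 0.606 for genes of like level, and 1.37 for Asf1b, against a median of 0.583 and a 90th percentile of 1.05. Summed, Npm2 was at 276 CPM in young and 361 CPM in low-mitochondrial aged oocytes (log2 ratio 0.39, 1.31-fold) and at 295 CPM in all aged oocytes (0.09). The high values belonged to 1 run of column numbers. Among low-mitochondrial aged oocytes numbered 41 to 56 in the header (16 oocytes), Npm2 ran from 362 to 683 CPM and 10 exceeded every young oocyte. Those numbered 14 to 36 (22 oocytes) ran from 155 to 581 CPM and 1 did so. Summed, the runs differed from young by 0.84 (1.79-fold) and -0.04 on the log2 scale. This split was chosen after the values were seen, no label says what the numbers stand for, and the part of the run in the result was not tested. In the same runs the log2 ratio over young was 0.73 and 0.70 for Nasp and -0.17 in each run for H1foo. It was 0.63 and 0.41 for Hira, -0.33 and -0.15 for Asf1a, -0.37 and -0.27 for Asf1b and 0.11 and 0.21 for Npm3. Npm2 also went with the mitochondrial share inside the low-mitochondrial aged oocytes (Pearson r 0.66, n = 38), which share libraries and depth with it.

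Npm3, of the same family as Npm2, was present in traces. It ran from 0.157 to 4.45 CPM (median 1.52) in young and from 0.418 to 4.38 CPM (median 2.08) in low-mitochondrial aged oocytes, that is from 1 to 38 and from 2 to 35 counts per oocyte. No low-mitochondrial aged oocyte left the young range. Summed, Npm3 was at 1.83 CPM in young and 2.18 CPM in low-mitochondrial aged oocytes (log2 ratio 0.17) and at 2.39 CPM in all aged oocytes (0.26). Per kilobase, Npm2 was 166 times Npm3 in the median young oocyte. With each oocyte thinned to 2000000 reads, Npm3 had a count in 33 of 35 young (94.3%, exact binomial interval 80.8 to 99.3%) and 35 of 38 low-mitochondrial aged oocytes (92.1%, 78.6 to 98.3%), against 35 and 38 before thinning.

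Nasp was higher in the aged oocytes once the high-mitochondrial ones were set aside. It ran from 89.1 to 237 CPM (median 154) in young and from 159 to 401 CPM (median 267) in low-mitochondrial aged oocytes. The ranges overlapped, but all 38 aged oocytes lay above the young median and 25 above the highest young oocyte. Summed, Nasp was at 161 CPM in young and 263 CPM in low-mitochondrial aged oocytes. The log2 ratio was 0.71 (interval from the 95% counting limits of both sums, 0.69 to 0.73), or 1.64-fold. It was the only 1 of the 7 past 1.5-fold in this contrast, where 8.85% of 8399 genes with at least 5 CPM were as far above and 1.87% as far below; with a pseudocount of 0.1 CPM in place of 1, Hira also passed (1.54-fold). With all 59 aged oocytes the ratio of Nasp was 0.30. Scaled to the counts of ERCC spike-ins, synthetic RNAs added to each lysate, the low-mitochondrial ratio turned to -0.12, while the median of all genes moved from 0.08 to -0.71, so Nasp stayed above that median and below the young level. The ratios of Npm2, Npm3 and Hira given here turned with it, to -0.45, -0.35 and -0.15, and those of H1foo, Asf1a and Asf1b kept their sign, at -1.01, -1.05 and -1.14. Equal spike-in per oocyte was not checked, and gene counts per spike-in count ran from 18.3 to 147 among the young oocytes.

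Hira, the chaperone subunit for H3.3, was at 0.234 to 5.75 CPM (median 3.26) in young and 0.656 to 17.1 CPM (median 4.23) in low-mitochondrial aged oocytes. In counts these were 2 to 58 and 5 to 100 per oocyte. All young oocytes stayed under 6 CPM, whereas 13 of 38 low-mitochondrial aged oocytes exceeded the highest of them and 14 lay below the young median. The coefficient of variation was accordingly 0.725 in these aged oocytes, against a 90th percentile of 0.655 for 3010 genes of like level, and 0.418 in young oocytes. Summed, Hira was at 3.12 CPM in young and 4.85 CPM in low-mitochondrial aged oocytes (log2 ratio 0.51, 1.42-fold, or 1.35-fold with all aged oocytes). The ratio was 1.55-fold in the low-mitochondrial oocytes numbered 41 to 56 and 1.33-fold in those numbered 14 to 36. Other genes of the H3.3 pathway had far higher CPM. Ubn1, which encodes a partner of Hira, was at 154 CPM in young and 157 CPM in low-mitochondrial aged oocytes, and Cabin1, another partner, at 170 and 173 CPM. These levels are not scaled to exon length. Since 2778 of the 4735 exon bases of Hira are shared with other genes, its count may be too low or too high.

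The ASF1 paralogs were both lower in aged oocytes by a small margin. Asf1b ran from 363 to 1223 CPM (median 534) in young and from 300 to 727 CPM (median 429) in low-mitochondrial aged oocytes. Asf1a ran from 141 to 334 CPM (median 196) and from 122 to 285 CPM (median 160). In both genes no aged oocyte exceeded the young range, and 12 of 38 low-mitochondrial oocytes for Asf1b and 8 of 38 for Asf1a lay below the lowest young one. Summed, Asf1b was at 565 CPM in young and 456 CPM in low-mitochondrial aged oocytes (log2 ratio -0.31, 1.24-fold lower) and 372 CPM in all aged (-0.60, 1.52-fold lower). For Asf1a the levels were 199, 171 and 135 CPM, with log2 ratios of -0.22 and -0.56 (1.16-fold and 1.47-fold lower). With all aged oocytes, 2 of the 7 genes (H1foo and Asf1b) were thus at least 1.5-fold lower, where 9.4% of 8289 genes were, and 0 at least 1.5-fold higher, where 9.3% were. Both counts were 0 once mitochondrially encoded genes were left out of the total, and both members stood just past the limit.

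Asf1b outweighed Asf1a in young and low-mitochondrial aged oocytes and not in the pools. Per kilobase of exon, Asf1b was 3.28 to 5.81 times Asf1a in young (median 4.11) and 2.64 to 5.28 times in low-mitochondrial aged oocytes (median 3.96). In high-mitochondrial oocytes the ratio ran from 0.0556 to 9.88, with Asf1b above in 17 of 21. In the pools it was 0.810 and 0.863 times Asf1a in siCtrl 1 and 2 and 0.395 and 0.510 times in siPlat 1 and 2. With only the exon bases of Asf1a that no other gene covers as its length, an alternative added after the values were seen, the medians were 1.69 in young and 1.63 in low-mitochondrial aged oocytes, and the pools lay at 0.333, 0.355, 0.163 and 0.210. With that length Asf1b was above in all 35 young and 38 low-mitochondrial aged oocytes, in 13 of 21 high-mitochondrial ones and in 0 of 4 pools. Mcm9, whose exons Asf1a shares, was at 24.8 CPM in young oocytes and 17.5 and 17.9 CPM in the siCtrl pools. The tables were counted and normalised separately and the pools were also treated, so table and treatment cannot be told apart.

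In the 21 high-mitochondrial aged oocytes the 7 genes separated widely. H1foo ran from 14.7 to 467 CPM (median 80.5), Nasp from 1.23 to 62.1 CPM (median 18.2) and Asf1a from 0.927 to 104 CPM (median 24.1). None of these ranges touched that of the other aged or the young oocytes, and 16.1% of 8073 genes likewise had every high-mitochondrial oocyte below every low-mitochondrial one (16.2% below every young one). Npm2 ran from 60.6 to 232 CPM (median 96.5), with 16 of 21 below the lowest low-mitochondrial oocyte. Asf1b ran from 0.491 to 649 CPM (median 56.9), with 18 of 21 below it. Asf1b thus spread over 3 orders of magnitude, from oocytes within the range of the others to 1 with 2 counts.

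Against the low-mitochondrial aged oocytes, the summed level fell from 9332 to 127 CPM for H1foo (log2 ratio -6.19, 73.1-fold) and from 263 to 21.9 CPM for Nasp (-3.53, 11.5-fold). It was 4.49-fold lower for Asf1a (171 against 37.5 CPM, -2.17), 3.14-fold lower for Asf1b (456 against 145 CPM, -1.65) and 3.10-fold lower for Npm2 (361 against 116 CPM, -1.63). Hence 5 of the 7 genes were at least 1.5-fold lower, against 58.6% of all 8073 genes, and 0 at least 1.5-fold higher, against 14.7%. The 8073 genes had to reach 5 CPM, which Npm3 and Hira did not, so the 5 are all the members that did. The median of all genes was itself -0.94. It was -0.49 with mitochondrially encoded genes left out of the total, where H1foo was at -5.71, Nasp at -3.06, Asf1a at -1.69, Asf1b at -1.16 and Npm2 at -1.15. With spike-in scaling it was -2.17, and H1foo was at -7.76, Nasp at -4.90, Asf1a at -3.64, Asf1b at -3.23 and Npm2 at -3.20. Against young oocytes, likewise, 5 of the 7 were at least 1.5-fold lower and 0 higher, where 56.1% and 17.3% of 7858 genes were. Against the other aged oocytes, all 5 lay below the median of all genes under each of the 3 scalings, and H1foo was the farthest below.

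Npm3 and Hira, the scarce members, were the least clear in these oocytes. Each had no count in 9 of 21 and reached 11.3 CPM (Npm3) and 16.1 CPM (Hira) in others. The summed levels were 2.95 CPM for Npm3 (log2 ratio 0.31 over low-mitochondrial oocytes) and 3.73 CPM for Hira (-0.31). The sign of Hira turned to 0.09 with mitochondrially encoded genes left out of the total and that of Npm3 to -0.53 with spike-in scaling, so no direction was kept for either. At a depth of 2000000 reads, 9 of 21 oocytes had a count of Npm3 (42.9%, exact binomial interval 21.8 to 66.0%) and 12 of 21 of Hira (57.1%, 34.0 to 78.2%).

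In the high-mitochondrial oocytes the linker histone and nucleoplasmin also changed places. H1foo per kilobase was 34.6 times Npm2 in the median young oocyte, with a range of 20.4 to 51.3, and 23.4 times in the median low-mitochondrial aged oocyte. In high-mitochondrial oocytes the median was 0.637, and H1foo stayed above Npm2 in 6 of 21. Npm2 ranked 275 of 54069 genes per kilobase there and H1foo 284. Whether these libraries hold less RNA of each gene or a larger share of other RNA cannot be told apart on the CPM scale.

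**Figure D2:**
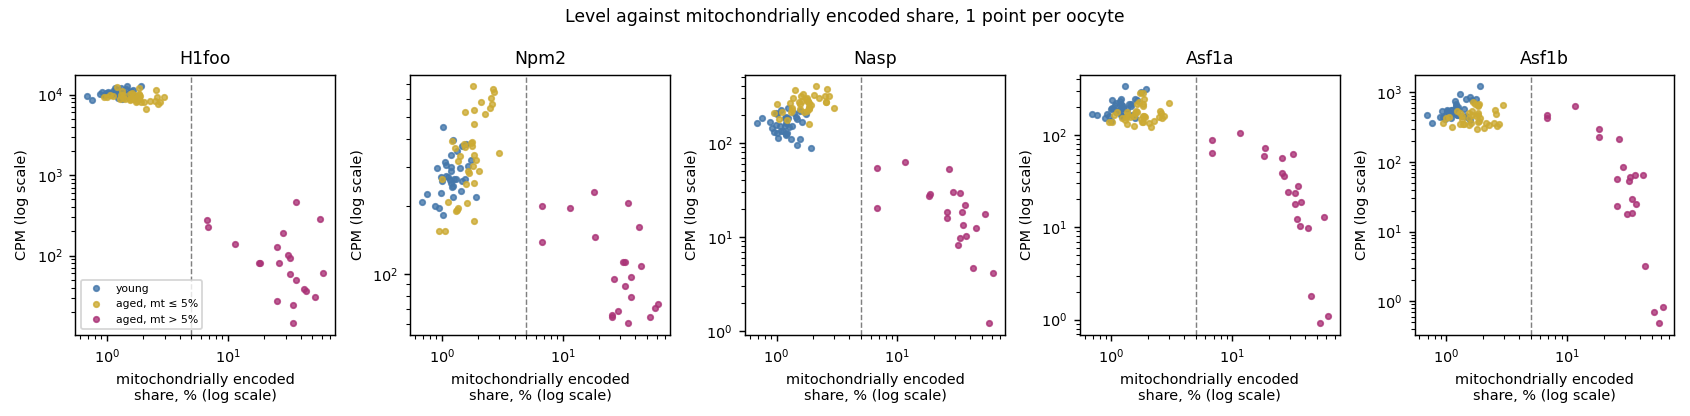
Level in CPM (vertical axis, log scale) against the mitochondrially encoded share of gene counts in percent (horizontal axis, log scale) for H1foo, Npm2, Nasp, Asf1a and Asf1b, 1 point per oocyte; the dashed line marks 5%. Asf1a and Asf1b decline along the share among the 21 high-mitochondrial oocytes, while H1foo is low in all of them.

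Inside the high-mitochondrial oocytes the members differed in how they went with the mitochondrial share (Pearson r of log2(CPM + 1) with the share, n = 21, a description over oocytes that share a sample and with the share itself part of the total). The r was -0.92 for Asf1b, -0.87 for Asf1a and -0.76 for Nasp. It was -0.54 for Npm2, -0.48 for Npm3, -0.31 for H1foo and -0.31 for Hira. With mitochondrially encoded genes left out of the total, it was -0.90 for Asf1b, -0.81 for Asf1a, -0.61 for Nasp and -0.05 for H1foo. H1foo was low at every share in these libraries, including the lowest ones, and the ASF1 paralogs and Nasp were graded.

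Between oocytes of 1 group, the ASF1 paralogs varied together, and other relations differed between groups. Asf1a and Asf1b went together in young (r 0.86, n = 35), low-mitochondrial aged (0.79, n = 38) and high-mitochondrial aged oocytes (0.81, n = 21). H1foo went with Asf1b in young (0.68) and low-mitochondrial aged oocytes (0.56). Nasp went against H1foo (-0.54 and -0.75) and against Asf1b (-0.54 and -0.48), and with Hira (0.33 and 0.58), in young and low-mitochondrial aged oocytes. In high-mitochondrial oocytes Nasp instead had r 0.74 with Asf1b (0.61 with mitochondrially encoded genes left out of the total) and 0.14 with H1foo. Hira had -0.60 with H1foo and -0.59 with Asf1b in low-mitochondrial aged oocytes and -0.12 and -0.11 in young ones, and Npm3 had -0.53 and -0.43 in young oocytes and 0.17 and -0.09 in low-mitochondrial aged ones. Npm2 had r -0.15 with H1foo in young and -0.39 in low-mitochondrial aged oocytes, and 0.32 and 0.54 with Nasp. All these values come from the same libraries and share their depth and complexity: in young oocytes the number of genes with a count had r -0.78 with Asf1b, -0.73 with Asf1a and -0.53 with H1foo. In low-mitochondrial aged oocytes these were -0.23, -0.32 and -0.11. There the log2 gene counts per spike-in count had r 0.44 with H1foo, -0.47 with Npm2, 0.38 with Npm3 and -0.58 with Nasp. With Hira, Asf1a and Asf1b it had r -0.38, -0.15 and 0.02. The part of either measure in the relations was not tested.

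**Figure D3:**
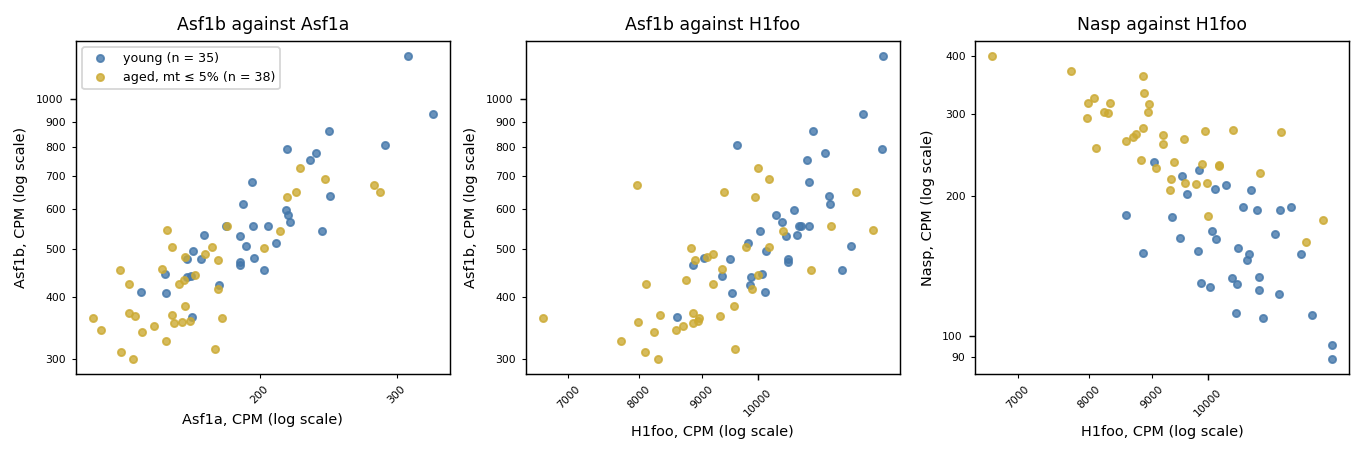
Asf1b against Asf1a, Asf1b against H1foo and Nasp against H1foo in 35 young and 38 low-mitochondrial aged oocytes, 1 point per oocyte, all axes in CPM on a log scale. The first 2 panels rise and the last falls, with the aged oocytes shifted to higher Nasp.

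The genes most like each member over the 35 young oocytes were found among 5118 or 5119 genes with at least 20 CPM. For Asf1b these were Ccdc6 (r 0.96), Cenpn (0.96) and Musk (0.93), with r of 0.56, 0.94 and 0.73 over the low-mitochondrial aged oocytes. For Asf1a they were Ccndbp1 (0.91, then 0.78), Hpf1 (0.90, 0.58) and Unc50 (0.88, 0.75). Cenpn therefore kept nearly the same likeness to Asf1b in the second group, higher than that between the paralogs. For Nasp they were Calr (0.87, then 0.80), Myo10 (0.79, 0.44) and Dmwd (0.79, 0.60). H1foo had Psmb6 (0.78, then 0.40), Alas1 (0.77, 0.57) and Fam172a (0.76, 0.31), and Npm2 had Acp1 (0.76, 0.48), Ik (0.73, 0.75) and Gm813 (0.72, 0.22). Npm3 had the lowest values over young oocytes, with Mlxipl (0.64, then 0.27), Myo5b (0.63, 0.29) and Prpf8 (0.63, 0.11). For Hira the genes were Dlg5 (0.75, 0.33), Itsn1 (0.74, 0.41) and Wwc2 (0.72, 0.73). Each was picked as the highest of all these values, so the r over young oocytes is high by choice. Several also went with the number of genes with a count over young oocytes. That r was -0.86 for Ccdc6, -0.70 for Cenpn, -0.72 for Musk, -0.82 to -0.72 for the genes of Asf1a and 0.60 to 0.70 for those of Npm3. It was -0.03 to 0.11 for those of Nasp, and its part in the likeness was not tested.

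The members were set beside a list of 53 other genes of linker histones, histone chaperones and replacement histones, 52 of which were found in the table of single oocytes. Of 40 with at least 5 CPM, 6 were at least 1.5-fold higher and 0 lower in low-mitochondrial aged oocytes than in young, where 8.85% and 1.87% of all genes were, with a median log2 ratio of 0.03 against 0.08 for all genes. With all 59 aged oocytes, 5 of 40 were higher and 4 lower, where 9.3% and 9.4% of all genes were, with a median of -0.16 against -0.07. The highest ratios were those of H1f1, a somatic linker histone named Hist1h1a in that table (6.15 CPM in young, 18.6 CPM in aged, log2 ratio 1.45), Mis18a, which helps load the centromeric histone (46.2 and 113 CPM, 1.27), and Anp32a of the Anp32 chaperone family (6.83 and 15.3 CPM, 1.06). The lowest were those of Set (-0.45), Hjurp, the chaperone of the centromeric histone (-0.33), and Vps72, a chaperone of the variant H2A.Z (-0.29). In the high-mitochondrial oocytes H1f1 stood at 102 CPM (8.21 to 239 CPM per oocyte) against 18.6 CPM in the other aged oocytes (2.39). The linker histone gene H1f0 stood at 92.8 CPM (0.358 to 234 CPM per oocyte) against 74.2 CPM (0.32), and H1foo was 73.1-fold lower. Of the listed linker histones under 5 CPM, H1f3 (0.58) and H1f4 (0.87) were higher, and H1f2 (-1.31) and H1f10 (-0.41) were lower. H1f5, H1f6 and H1f7 had almost no counts. Of 39 listed genes with at least 5 CPM in that contrast, 24 were at least 1.5-fold lower and 5 higher, where 58.6% and 14.7% of all genes were, with a median of -1.16 against -0.94 for all genes.

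**Figure D4:**
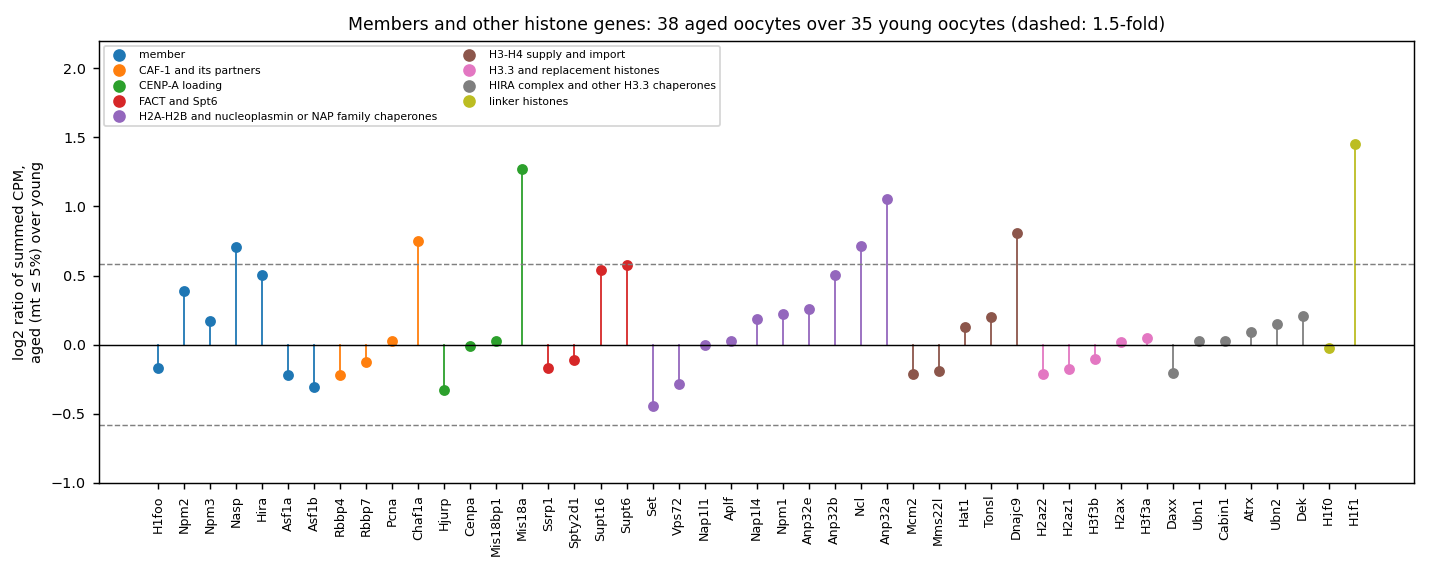
Log2 ratio of summed CPM (pseudocount 1) of 38 low-mitochondrial aged over 35 young oocytes (vertical axis) for the 7 members and 40 listed genes with at least 5 CPM, coloured by role; dashed lines mark 1.5-fold. Nasp is the member past the upper line and no gene is past the lower one.

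In the pools, the question was what changes when Plat is depleted. Plat itself read 441 and 439 CPM in the siCtrl pools but 51.4 and 39.0 CPM in the siPlat pools (log2 fold change -3.28, edgeR adjusted p = 6.21e-06). All 7 members passed the filter on low counts. Of them, H1foo fell and the other 6 did not pass the test. H1foo read 7635 CPM in siCtrl 1, 8224 CPM in siCtrl 2, 4444 CPM in siPlat 1 and 5691 CPM in siPlat 2. Both siPlat pools lay below both siCtrl pools. The mean fell from 7930 ± 417 to 5068 ± 882 CPM (SD, 2 pools in each group), which is 1.56-fold or -0.65 on the log2 scale (SE 0.15, edgeR adjusted p = 0.0390 over 11136 genes). By this rule 3.54% of all genes were called, 1.41% lower and 2.13% higher, so 1 call among 7 genes is a small count. In a pool, less H1foo in every oocyte and a loss in some of the 10 oocytes cannot be told apart. The call of H1foo ended without siCtrl 1 (-0.70, edgeR adjusted p = 0.187) and without siCtrl 2 (-0.59, 0.295), where the siPlat pools alone gave the spread and the fold was about as large. Its adjusted p had a range of 0.000447 to 0.295 in 9 other settings.

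Asf1b was the next nearest to the threshold. The siCtrl pools held 325 and 303 CPM of it, the siPlat pools 180 and 232 CPM, and the groups did not overlap. The log2 fold change was -0.61 (SE 0.17), or 1.52-fold lower, with an edgeR adjusted p = 0.0831. It passed in 3 of 9 other settings: with DESeq2 (adjusted p = 0.0240), without the filter on low counts (edgeR adjusted p = 0.0483) and without siPlat 2 (0.00344), with 0.411 as the highest value over the 9. Its paralog Asf1a had 591 and 517 CPM in siCtrl against 672 and 671 CPM in siPlat, higher in both siPlat pools, with a log2 fold change of 0.28 (SE 0.15, edgeR adjusted p = 0.351). The log2 fold changes of the paralogs thus had opposite signs in the pools, where neither passed, and the same sign between ages.

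Of the remaining members none passed. Npm2 read 1748 and 2130 CPM in siCtrl and 2366 and 2172 CPM in siPlat (log2 fold change 0.23, SE 0.15, edgeR adjusted p = 0.456). Nasp read 581 and 629 CPM in siCtrl and 619 and 489 CPM in siPlat (-0.13, SE 0.16, adjusted p = 0.745), with the groups overlapping. Hira read 2.13 and 3.32 CPM in siCtrl and 1.21 and 0.864 CPM in siPlat, which are 38, 47, 14 and 11 counts (-1.39, SE 0.67, adjusted p = 0.295). Npm3 read 1.79 and 2.90 CPM in siCtrl and 2.15 and 1.81 CPM in siPlat, from 23 to 41 counts (-0.24, SE 0.60, adjusted p = 0.889). The groups did not overlap for 5 of the 7 genes, with H1foo, Hira and Asf1b lower and Npm2 and Asf1a higher in siPlat. Over all genes both siPlat pools were lower in 25.8% and higher in 23.5%.

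**Figure D5:**
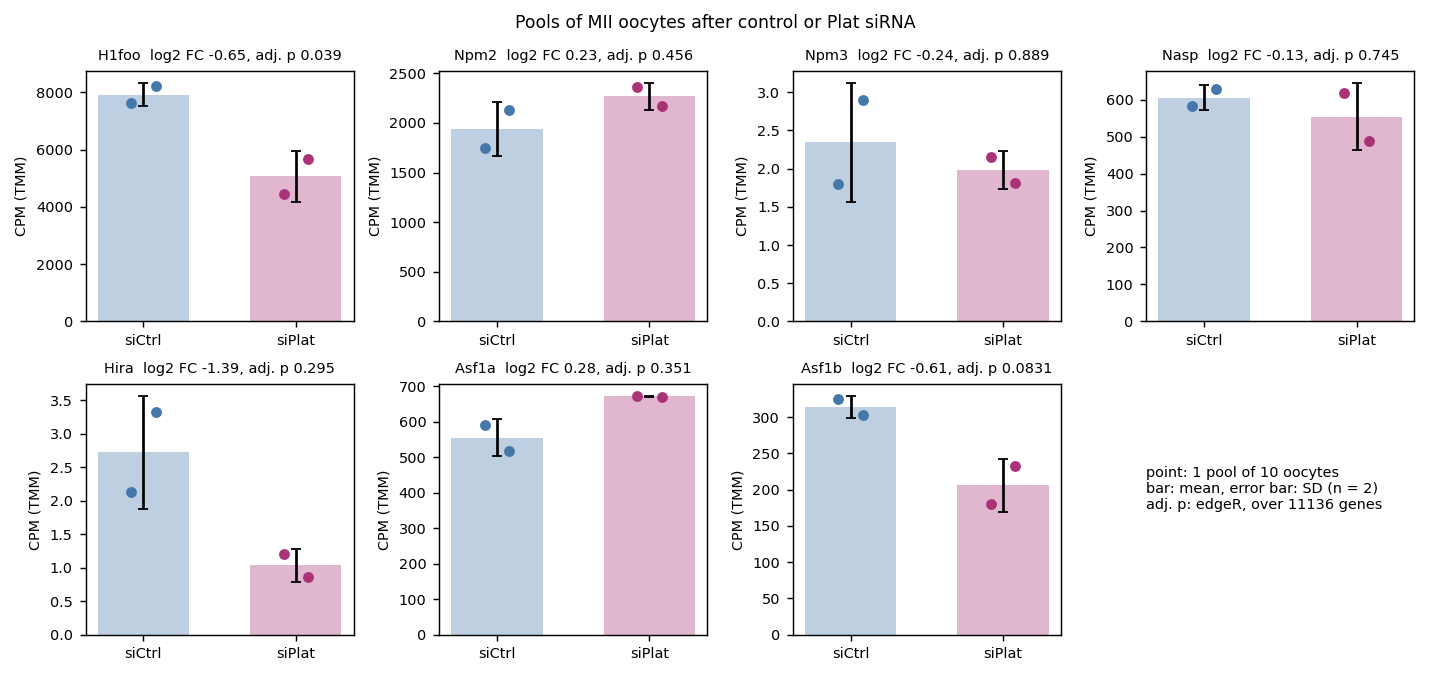
Level of the 7 genes in pools of 10 MII oocytes, in CPM after TMM scaling (vertical axis, from 0), for 2 siCtrl and 2 siPlat pools (horizontal axis); points are pools, bars means and error bars SD. H1foo, Hira and Asf1b of both siPlat pools lie below both siCtrl pools, and only the change of H1foo passed at an adjusted p of 0.05.

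Of 49 listed histone genes found in the table of pools, 46 were tested and 1 passed. Dek, a DNA-binding protein and chaperone of H3.3, rose from 593 and 514 CPM in siCtrl to 982 and 862 CPM in siPlat (log2 fold change 0.74, SE 0.15, edgeR adjusted p = 0.0262). Its call also ended without siCtrl 1 (0.85, edgeR adjusted p = 0.126) and without siCtrl 2 (0.64, 0.296), over a range of 0.000457 to 0.296. The median log2 fold change of the 46 was 0.02 against -0.03 for all genes. The order of the members per kilobase in the siCtrl pools was H1foo (rank 5 of 13687 genes), Npm2 (29), Asf1a (304), Nasp (340), Asf1b (376), Npm3 (6347) and Hira (9385), where Asf1a and Nasp overlapped between the pools and the other neighbours did not. Between siCtrl and siPlat the ratio of H1foo to Npm2 per kilobase went from 3.88 and 3.43 to 1.67 and 2.33. All 4 pools lay below the range of 20.4 to 51.3 in young single oocytes, where table and treatment again cannot be told apart. The oocyte markers summed to 16359 to 19767 CPM in the pools, with 10 of 10 at 5 CPM or more in each pool. The table of pools holds 0 mitochondrially encoded genes, so the mitochondrial share of the pooled oocytes could not be measured.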

How the data were processed

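The authors deposited whole-number read counts per gene in 2 tables, of 4 pools and of 94 single oocytes, without normalisation. The tools STAR 2.7.10b and HTSeq 0.13.5 and the build mm10 are named, with no role, per the submitters' processing notes; the annotation, filters and strand setting are not given in the sources used here. Libraries were Smart-seq2 with no molecular identifiers named, per the labels' protocols. The single-oocyte table also held 92 ERCC entries, kept out of gene totals, and 1 column without a name or values.

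Members and gene lists were chosen with earlier results of these data known. Pools were tested with edgeR 4.0.16 in R 4.3.3 (quasi-likelihood, robust fit, TMM, default filter with a minimum count of 10 and total of 15), with Benjamini-Hochberg adjustment over all genes tested and a threshold of 0.05. The SE is the absolute log2 fold change over the square root of F. Tested on simulated data for siPlat against siCtrl (10775 genes), this fit called 37 of 100 genes set to a 2-fold change, 80 of 100 set to a 4-fold change and 12 unchanged genes. With no gene changed it called 2.

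Single oocytes were summed per group as CPM with exact Poisson intervals at 95%, log2 ratios with a pseudocount of 1 CPM, and no test, since each age is 1 sample. Intervals of log2 ratios set the lower limit of 1 group against the upper limit of the other, so they are wider than 95% intervals. Counts over all genes used a minimum of 5 CPM for the mean of the groups compared. Counts of members did not use it, and Npm3 and Hira were under it. All 7 members were named. Of 53 listed genes, those called in the pools and the 3 highest and 3 lowest ratios of low-mitochondrial aged over young oocytes were named. The other linker histones, Ubn1 and Cabin1 were named outside this rule. For each member the 3 genes of highest Pearson r over young oocytes among those with at least 20 CPM were named. Exon lengths are unions of GENCODE exons (GRCm38), and promoters came from RefSeq (GRCm38.p6). Alternatives were DESeq2 1.42.0, its size factors in edgeR, limma-voom (limma 3.58.1), no filter, the replicate number as a block and each pool left out; for the single oocytes a pseudocount of 0.1 CPM, no filter, means or medians over oocytes, totals without mitochondrially encoded genes, ERCC scaling, only low-mitochondrial oocytes and thinning to 2000000 reads. The split by column number and the Asf1a length without shared bases were added after seeing the data.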

Additional observations from a re-analysis of the deposited data

How the results depend on the processing

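The number of genes called in the pools moved from 394 to 645 with DESeq2 and was 157, 160, 713 and 1145 without siCtrl 1, siCtrl 2, siPlat 1 and siPlat 2, and the number of members called was 2 with DESeq2 and without the filter on low counts (H1foo and Asf1b) and 0 to 2 with 1 pool left out. Listed histone genes called ran from 0 to 7 with 1 pool left out. The replicate numbers were shared by label only: deviations of the number 1 pools had r = -0.06 across 11136 genes, and with the replicate block edgeR called 273 genes and 1 member, H1foo. Signs turned for members that did not pass: Npm3 was at 0.14 without siCtrl 2 and Nasp at 0.045 without siPlat 2. Plat was called in all 9 other settings. Where a pool is left out, the lone pool of its group is assumed to vary like the other group.

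Members at least 1.5-fold lower in all aged oocytes numbered 0 with medians over oocytes, with totals without mitochondrially encoded genes and with low-mitochondrial oocytes only. They numbered 3 (H1foo, Asf1a and Asf1b) with means over oocytes, where 1341 of 8289 genes were. With ERCC scaling they numbered 7, where 7881 of 8289 genes were and the median of all genes was -1.43. Members at least 1.5-fold higher numbered 1 (Nasp) with low-mitochondrial oocytes only. In high-mitochondrial against other aged oocytes, 5 to 7 members were lower under each alternative, with 7 for medians over oocytes, where 5580 of 8073 genes were, and 6 for ERCC scaling, where 7319 were; 1 (Npm3) was higher with totals without mitochondrially encoded genes. With ERCC scaling Nasp in low-mitochondrial aged over young oocytes turned from 0.71 to -0.12. Npm3 and Hira rest on few counts per oocyte and were under the minimum of 5 CPM set for all genes, and depth limits any statement on them.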
